A study of Mus musculus with 70 samples.

Results

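Oxidative phosphorylation is carried out by 5 protein complexes of the inner mitochondrial membrane. Complexes I and II take electrons from NADH and succinate, complex III passes them through cytochrome c to complex IV, complex IV reduces oxygen, and complex V uses the proton gradient built on the way to make ATP. Most subunits are encoded in the nucleus and imported into mitochondria, while a small core is encoded by the mitochondrial genome, and complex II is encoded by the nucleus alone. The nuclear-encoded genes of this pathway were examined here in leukocytes sorted from the blood of mice after chronic social defeat stress (CSDS).

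The genes were chosen by name, as the protein-coding rows of the count table whose symbol starts with Ndufa, Ndufb, Ndufc, Ndufs, Ndufv, Uqcr, Cox4i, Cox5, Cox6, Cox7, Cox8, Sdha to Sdhd or Atp5, without the Ndufaf assembly factors. This gave 89 of the 52636 genes in the table, spread over 19 chromosomes. By known role, 36 belong to complex I (7 core and 29 supernumerary subunits), 8 to complex II, 8 to complex III, 20 to complex IV and 17 to complex V. Of the 89 genes, 75 encode subunits found in most tissues. The others are 8 tissue-restricted forms of complex IV subunits, Cox7a2l, which acts in supercomplex assembly, Atp5s, a coupling factor, and the complex II assembly factors Sdhaf1 to Sdhaf4, which the prefix Sdha also takes in. Ndufa4 is counted with complex IV, to which its protein belongs despite its name.

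C57BL/6J mice of 7 to 8 weeks went through 10 days of CSDS by CD-1 aggressors and were divided by a social interaction test into stress-susceptible (SUS) and resilient (RES) mice, while control (CON) mice were not defeated. From blood, 4 cell types were sorted, which are the Ly6Chigh and Ly6Clow monocytes and the lymphocytes of the B and T lineage. Each library is RNA of 1 cell type from CON, SUS or RES mice. The labels name brain as the source, whereas the study describes blood, and they do not tie a library to a mouse, so p-values measure the spread between libraries. Each group had 6 libraries, except the 4 libraries of Ly6Clow monocytes from CON mice and the 5 each of B cells and T cells from RES mice that remained after 2 libraries were left out.

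The 2 libraries left out carried the markers of the other lymphocyte. Replicate 52, labelled RES B cells, held 412.3 CPM (counts scaled to library size, TMM-normalized over all libraries) of the T cell gene Cd3e and 5.75 of the B cell gene Cd79a. Replicate 70, labelled RES T cells, held 1417 CPM of Cd79a and 0.143 of Cd3e. In the 68 libraries used, total counts ranged from 19769835 to 67038231, and 63371 to 365142 of these fell on the 89 genes. In CON mice, median Ly6c2, a marker of classical monocytes, was 252.2 CPM in Ly6Chigh and under 1.15 in every library of Ly6Clow monocytes, while Nr4a1, required for non-classical monocytes, was 278.2 and 951.5 CPM in the same order. T cells also held 95.4 CPM of Ly6c2, which some T cells are known to express.

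The promoters of the genes were searched for letters of the sites by which this family is known to be controlled. These are the sites of NRF1, of ETS factors such as GABP, and of YY1. RefSeq entries (GRCm38.p6) were found for 71 of the 89 genes, which have 76 promoters from 250 bases before to 50 bases after the start. On either strand, the NRF1 letters GCGCANGCG stood in 30.3% of these promoters and in 6.25% of all 32851 promoters of the same length. The ETS letters CCGGAAG stood in 25% against 8.86%, the YY1 letters AAGATGGCG in 9.21% against 1.4%, and the ERR letters CAAGGTCA in 5.26% against 1.56%. At least one of the first 3 was found in 40 of the 76 promoters, or 52.6%, against 14.8% of all promoters. The SP letters GGGCGG, a common GC-rich motif, were nearer to the background with 42.1% against 35.7%, and median GC content was 57.7% against 52.7%. A match describes letters only, and some matches overlap between motifs.

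Stretches of 200 bases that end just before the start are printed for 4 genes among those with the largest change in Ly6Chigh monocytes (Ndufb11, Ndufs6, Cox7b and Cox6b1). They are also printed for 2 genes of the same complexes whose change was not called (Ndufab1 and Cox7a1). These 2 had the lowest log2 fold changes among the uncalled genes considered, which had a single promoter entry and a mean of at least 50 counts. The stretches are examples and too few to compare both kinds. They are given 5′ to 3′ on the strand of the gene, and capitals mark a match to one of the 5 motifs. The regions are chrX:20617620-20617819 (Ndufb11), chr13:73328483-73328682 (Ndufs6), chrX:106015500-106015699 (Cox7b), chr7:30626115-30626314 (Cox6b1), chr7:122101849-122102048 (Ndufab1) and chr7:30183971-30184170 (Cox7a1), of which those of Cox7b and Cox7a1 are on the plus strand and the others on the minus strand.
Ndufb11: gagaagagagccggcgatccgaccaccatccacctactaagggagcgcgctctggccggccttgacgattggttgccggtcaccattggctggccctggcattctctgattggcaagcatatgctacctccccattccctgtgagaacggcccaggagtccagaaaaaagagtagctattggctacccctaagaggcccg
Ndufs6: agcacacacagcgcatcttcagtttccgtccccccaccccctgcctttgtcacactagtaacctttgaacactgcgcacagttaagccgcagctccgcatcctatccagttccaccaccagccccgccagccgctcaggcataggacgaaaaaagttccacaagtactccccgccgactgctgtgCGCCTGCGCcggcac
Cox7b: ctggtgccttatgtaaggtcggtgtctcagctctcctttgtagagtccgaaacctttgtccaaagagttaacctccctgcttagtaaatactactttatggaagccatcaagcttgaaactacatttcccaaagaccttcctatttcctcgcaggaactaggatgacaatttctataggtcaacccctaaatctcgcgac
Cox6b1: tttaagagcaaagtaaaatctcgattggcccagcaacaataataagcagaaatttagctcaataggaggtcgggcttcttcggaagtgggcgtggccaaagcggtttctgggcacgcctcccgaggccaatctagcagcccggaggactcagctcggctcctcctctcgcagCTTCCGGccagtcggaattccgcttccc
Ndufab1: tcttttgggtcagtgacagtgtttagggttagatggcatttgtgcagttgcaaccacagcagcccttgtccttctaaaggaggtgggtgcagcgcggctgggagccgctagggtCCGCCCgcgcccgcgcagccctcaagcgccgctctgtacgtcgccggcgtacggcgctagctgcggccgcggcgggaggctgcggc
Cox7a1: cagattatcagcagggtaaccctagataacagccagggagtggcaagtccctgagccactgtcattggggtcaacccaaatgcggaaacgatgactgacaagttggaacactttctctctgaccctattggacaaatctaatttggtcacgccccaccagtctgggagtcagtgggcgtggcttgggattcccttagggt

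The match in Ndufs6 is to the NRF1 letters, 15 to 7 bases before the start, that in Cox6b1 to the ETS letters and that in Ndufab1 to the SP letters. The stretches of Ndufb11, Cox7b and Cox7a1 held no match.

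In Ly6Chigh monocytes, the classical monocytes of the blood, genes of all 5 complexes were higher in SUS than in CON mice. The summed level of the 89 genes had a lowest, median and highest value of 3050, 3326 and 3577 CPM in CON mice, 4106, 5952 and 8877 CPM in SUS mice and 3882, 5274 and 6490 CPM in RES mice. All SUS and RES libraries thus lay above all CON libraries, and SUS and RES mice overlapped. As a share of all counts, the genes took 0.335% to 0.374% in CON and 0.412% to 0.708% in SUS libraries.

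**Figure D1:**
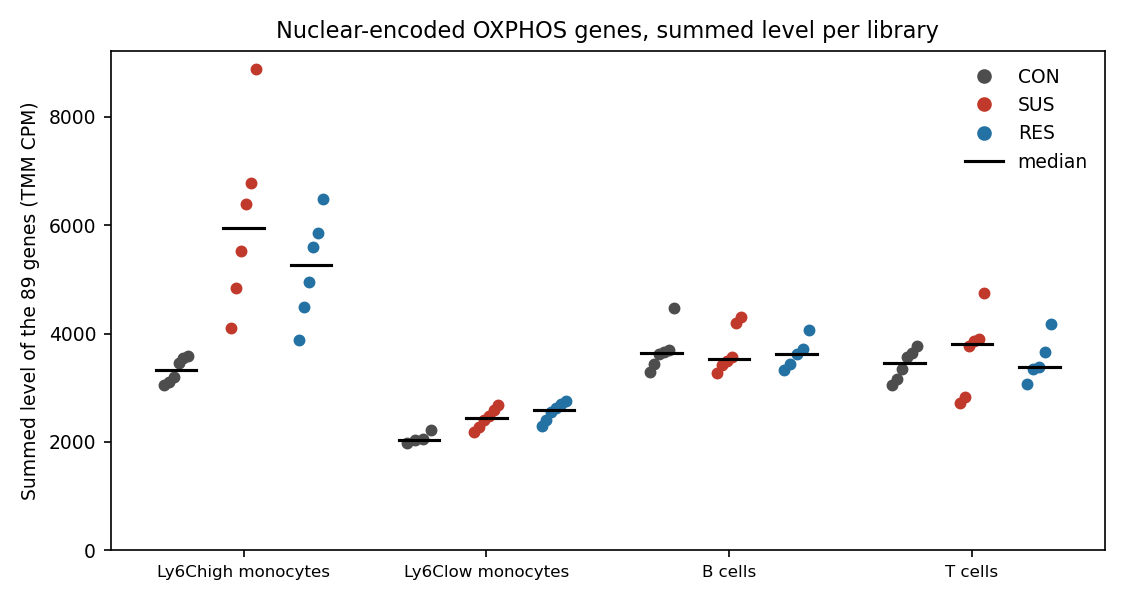
Summed level of the 89 genes in each library, in TMM-normalized CPM, by cell type and group of mice, with a black line at the median. In Ly6Chigh monocytes the SUS and RES libraries lie above every CON library (highest 3577 CPM), whereas the groups overlap in B cells and T cells.

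Of the 89 genes, 83 passed the filter on low counts in Ly6Chigh monocytes and were tested with edgeR's quasi-likelihood test, with p-values adjusted over all 16955 genes tested. At an adjusted p under 0.05, 61 of the 83 were higher and 0 were lower in SUS than in CON mice. An unadjusted p under 0.05 was reached by 70 of the 83 and by 4498 of all 16955 genes. Among all genes tested, 8.78% were called higher and 3.84% lower. The median log2 fold change was 0.88 over the 83 genes and -0.05 over all genes, and 76 of the 83 values were positive. DESeq2 called 62 of them higher, and its share of all genes is not given here. A log2 fold change above 1 was reached by 27 of the called genes, against 2.28% of all genes. In 25 of the 83 every SUS library was above every CON library, against 4.64% of all genes. In a bulk library of sorted cells, a different make-up of the cells and a different amount of RNA per cell cannot be told apart.

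Complex I, the NADH dehydrogenase, had 28 of 35 tested genes called, with a median of 0.95. They included 4 of 6 core subunits and 24 of 29 supernumerary subunits. Ndufb11, a subunit of the membrane arm, was 23.5, 30.1 and 34.2 CPM (lowest, median, highest) in CON mice and 52.6, 73.2 and 106.6 CPM in SUS mice. The groups did not overlap, and the log2 fold change was 1.30 (SE 0.18, adjusted p = 0.000317). Ndufs6, an accessory subunit with a zinc site, was 6.24, 7.73 and 11.3 CPM in CON and 12.1, 20.9 and 30.3 CPM in SUS mice, again without overlap. Its log2 fold change was 1.21 (SE 0.24, adjusted p = 0.00270). Ndufa11 changed by 1.14 and Ndufv1, the core subunit that binds NADH and FMN, by 1.02 (SE 0.25, adjusted p = 0.00874).

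The complex I genes that were not called included a core subunit at a high level. Ndufs1, the largest subunit with iron-sulfur clusters, was 39.1, 50.1 and 52.4 CPM in CON and 27.8, 49.0 and 66.3 CPM in SUS mice, with a log2 fold change of -0.05 (SE 0.16, adjusted p = 0.879). The ranges overlapped fully. Ndufab1, the mitochondrial acyl carrier protein, was 11.7, 12.7 and 14.7 CPM in CON and 3.15, 9.85 and 15.5 CPM in SUS mice, with a log2 fold change of -0.35 (SE 0.29, adjusted p = 0.476). The count table also holds its pseudogene Ndufab1-ps with 72.4 counts per library, and how reads were shared between the copies was not tested. Ndufb2 had a log2 fold change of -0.25 (SE 0.39) at a median of 6.47 CPM in CON mice.

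Complex II, which joins the citric acid cycle to the chain, had 3 of its 4 subunits called. Sdhb, the iron-sulfur subunit, was 46.6, 53.4 and 69.05 CPM in CON and 69.02, 106.7 and 198.7 CPM in SUS mice, so that the groups touched only at the lowest SUS library. Its log2 fold change was 1.00 (SE 0.22, adjusted p = 0.00435). The membrane anchors Sdhc and Sdhd both changed by 0.76 (SE 0.20 and 0.18). Sdha, the flavoprotein that oxidizes succinate, was 124.0, 156.7 and 179.0 CPM in CON and 163.8, 203.2 and 255.5 CPM in SUS mice, a log2 difference of 0.38 (SE 0.13) that did not pass (adjusted p = 0.0531). None of the assembly factors Sdhaf1 to Sdhaf4 was called, and their log2 fold changes ran from -0.20 to 0.55.

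Complex III had 5 of 8 genes called, with a median of 0.67. Uqcrq, a small subunit beside cytochrome b, had the highest log2 fold change of all 83 genes, 1.40 (SE 0.31, adjusted p = 0.00522), and also wide groups. It was 13.7, 39.4 and 49.2 CPM in CON and 27.4, 90.4 and 192.2 CPM in SUS mice, and 1 SUS library fell among the CON libraries. Uqcr11 and Uqcr10 changed by 1.15 and 1.05. The core proteins Uqcrc1 and Uqcrc2, at 0.61 (adjusted p = 0.0606) and 0.42 (adjusted p = 0.0839), did not pass, while Uqcrfs1, the Rieske iron-sulfur protein, did (0.56, adjusted p = 0.0199).

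Complex IV, cytochrome c oxidase, had 10 of 15 tested genes called, with a median of 0.88. Cox7b was 24.5, 35.3 and 45.1 CPM in CON and 64.7, 79.0 and 106.0 CPM in SUS mice, with no overlap and a log2 fold change of 1.20 (SE 0.17, adjusted p = 0.000370). Cox4i1, the common form of subunit 4, was 92.9, 107.6 and 115.9 CPM in CON and 162.2, 230.9 and 414.8 CPM in SUS mice, also without overlap (1.17, SE 0.20, adjusted p = 0.00144). Cox6b1, which faces the intermembrane space, and Ndufa4 changed by 1.20 and 1.14. Cox7a1, the heart and muscle form of subunit 7a, stayed low, with a median of 2.02 CPM in CON and 0.797 CPM in SUS mice, and was not called (-0.91, SE 0.83, adjusted p = 0.529).

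Complex V, the ATP synthase, had 15 of 17 genes called, with a median of 0.92. Atp5a1, the alpha subunit of the catalytic head, was 322.1, 329.5 and 352.6 CPM in CON and 446.1, 544.2 and 880.8 CPM in SUS mice, without overlap (0.77, SE 0.16, adjusted p = 0.00367). Atp5c1, the gamma subunit of the rotor, changed by 0.87 (SE 0.14, adjusted p = 0.000991). Atp5e, the small epsilon subunit, had the highest value of the complex, 1.19 (SE 0.23, adjusted p = 0.00231). Atp5g1, Atp5g2 and Atp5g3, which encode the same mature protein of the rotor ring, changed by 1.02, 1.03 and 0.91, and all 3 were called. The genes not called were Atp5k (0.81, adjusted p = 0.0786) and Atp5s (-0.72, SE 0.80).

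**Figure D2:**
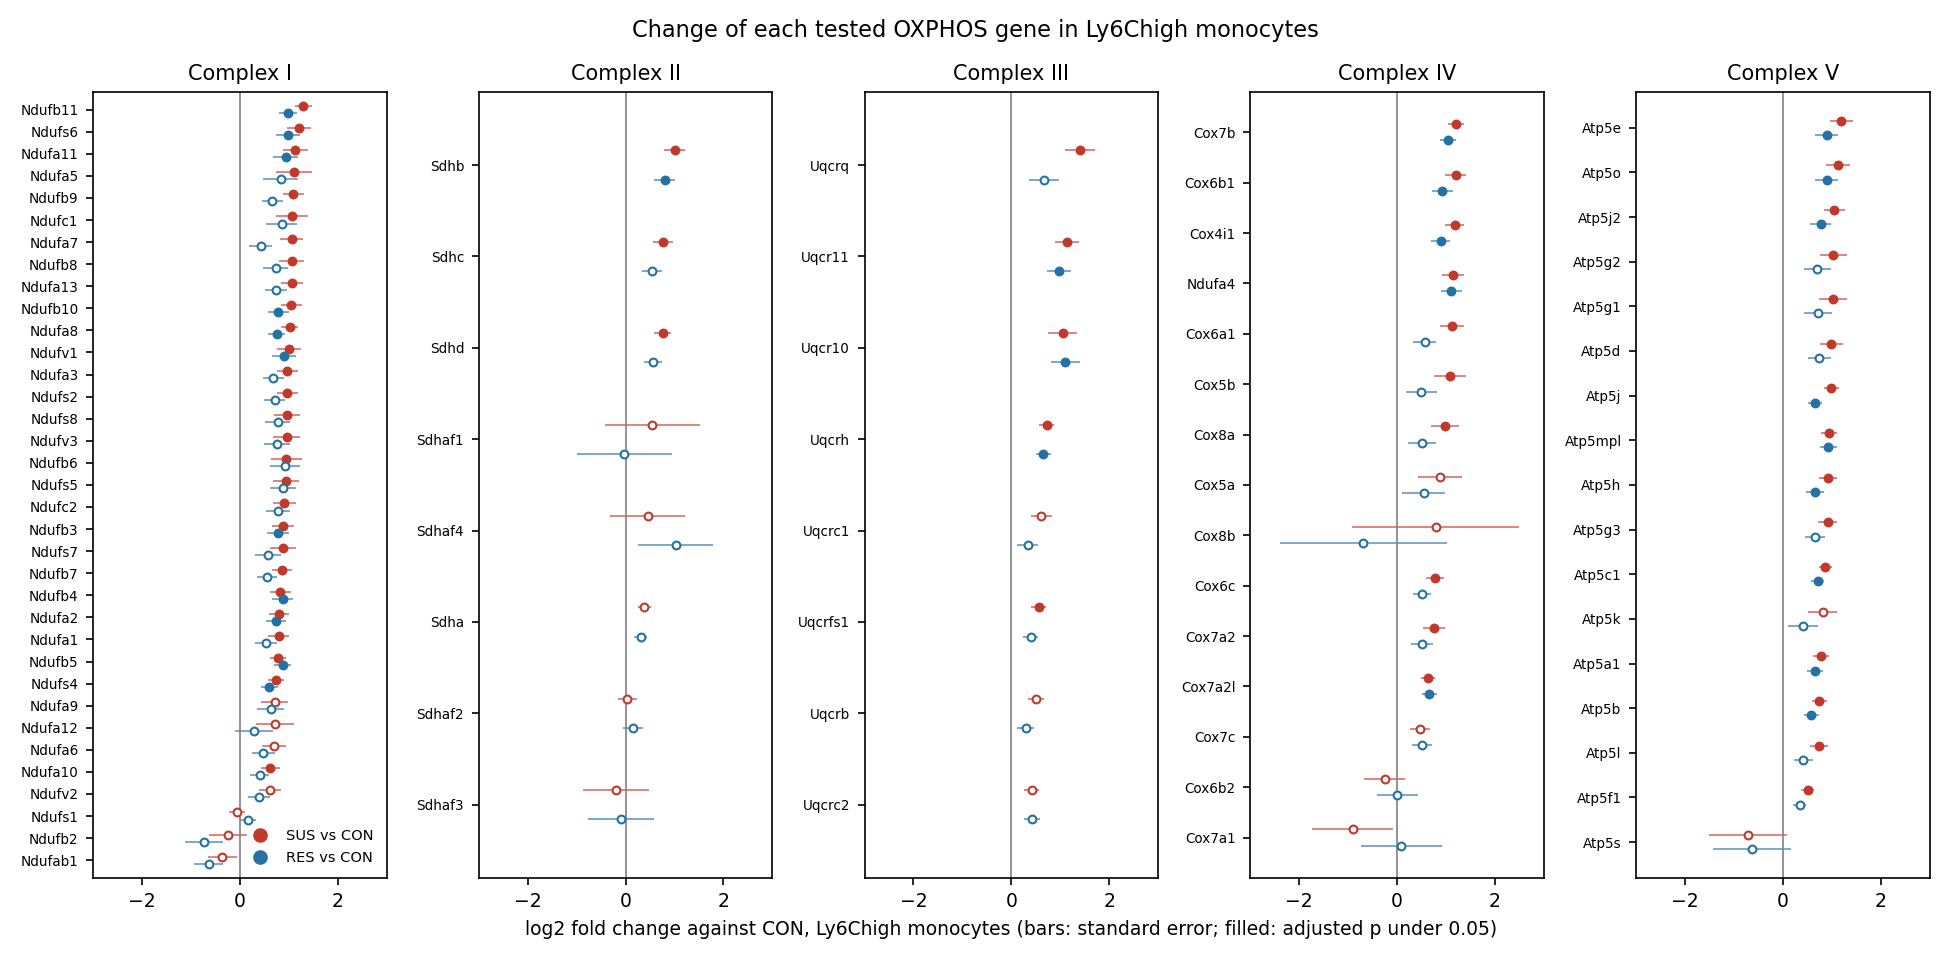
Log2 fold change of each of the 83 tested genes in Ly6Chigh monocytes, SUS against CON mice in red and RES against CON mice in blue, by complex. Bars are standard errors and filled points have an adjusted p under 0.05 (61 genes in SUS and 29 in RES mice); both comparisons use the same CON libraries.

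RES mice also differed from CON mice. Of the 83 genes, 29 were called higher and 0 lower, where 3.71% of all genes were higher and 1.26% lower, and the median log2 fold change was 0.66 with 77 positive values. Only 3 called genes had a log2 fold change above 1 (0.531% of all genes), namely Ndufa4 (1.11, SE 0.22, adjusted p = 0.0138), Uqcr10 (1.10, SE 0.29, adjusted p = 0.0334) and Cox7b (1.04, SE 0.17, adjusted p = 0.00843). Every RES library was above every CON library in 23 of the 83 genes, against 2.79% of all genes. The called genes were 11 of complex I, 1 of complex II, 3 of complex III, 5 of complex IV and 9 of complex V. Both comparisons use the same 6 CON libraries, so their values are not independent of each other.

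The same genes can be followed in the RES libraries. Ndufb11 was 43.1, 56.9 and 81.2 CPM, Cox7b 54.0, 69.9 and 89.9 CPM and Cox4i1 135.1, 184.6 and 278.0 CPM, each wholly above its CON libraries. Ndufa4 was 8.90, 11.8 and 17.3 CPM in CON, 15.9, 28.2 and 35.6 CPM in SUS and 17.9, 25.7 and 35.3 CPM in RES mice. Its RES libraries did not overlap with CON, while its lowest SUS library did. In Ndufab1 alone, every RES library (5.91, 7.32 and 11.6 CPM) was below every CON library, but the difference did not pass the test.

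The number of called genes in RES mice depended on single libraries. It was 6 without RES replicate 18, 7 without RES replicate 9, 9 without CON replicate 1 or RES replicate 15, 11 without CON replicate 7, 14 without CON replicate 4 and 17 without CON replicate 10 or 16, and at most 40. The median log2 fold change stayed between 0.61 and 0.71 over these fits. For SUS mice the count lay between 48 and 69. The shares of all genes called with a library left out are not given here, so these counts are not set against the whole fit.

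SUS and RES mice were not told apart by these genes. None of the 83 was called by edgeR or by DESeq2, and 0.0059% of all genes were called by edgeR. An unadjusted p under 0.05 in edgeR's test was reached by 4 of the 83 and by 620 of all 16955 genes. The median log2 difference of the 83 was 0.22, with 70 positive values. The named genes with the smallest p were Ndufa7 (0.63, SE 0.23), Uqcrq (0.74, SE 0.31) and Cox6a1 (0.56, SE 0.24), all with an adjusted p of 0.999.

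**Figure D3:**
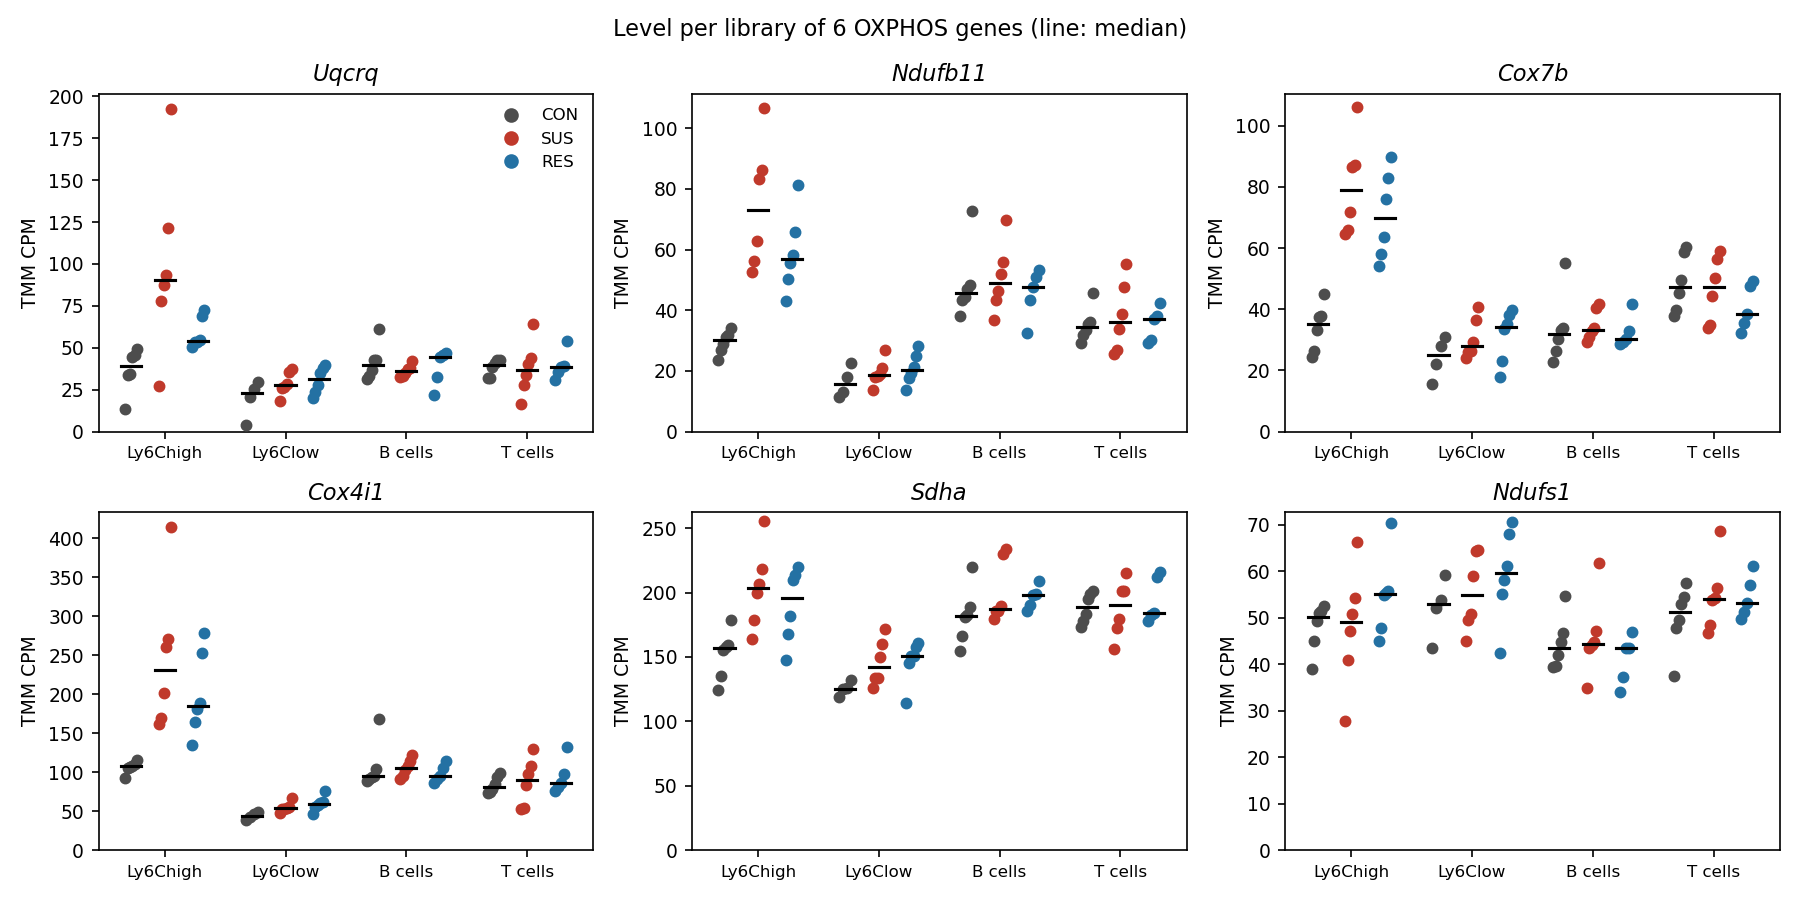
Level of 6 genes in each library, in TMM-normalized CPM, by cell type and group of mice, with a black line at the median. In Ly6Chigh monocytes, Ndufb11, Cox7b and Cox4i1 have all SUS and RES libraries above the CON libraries, the SUS libraries of Sdha and Uqcrq overlap with CON in part, and Ndufs1 overlaps widely (medians of 50.1 CPM in CON and 49.0 CPM in SUS mice).

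Markers of other blood cells moved in the same libraries. The summed level of 7 red cell genes was 334.4, 597.4 and 1194 CPM in CON, 1089, 1644 and 9033 CPM in SUS and 1061, 1824 and 4279 CPM in RES mice. All 7 had a higher median in SUS and in RES mice, and 5 libraries of each group lay above every CON library. SUS replicate 14 had both the highest red cell level and the highest summed level of the 89 genes (8877 CPM). Without it, 48 genes were called with a median of 0.69, and 48 were also called without CON replicate 1. The shares of all genes called in these fits are not given here. When the log2 red cell level was added to the model, 0 of the 83 genes were called in SUS or RES mice, with medians of 0.37 and 0.26, and 1 and 0 of all 16955 genes were called. The part of red cells in the result was not tested apart from the groups, since the covariate is itself higher in both.

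Other marker lists moved as well. The 6 platelet genes had medians of 7.84 CPM in CON and 21.0 CPM in SUS mice (5.93 to 11.8 and 8.59 to 62.4), and the 6 granule progenitor genes 19.6 and 47.3 CPM (4.58 to 43.3 and 15.3 to 184.4). In RES mice the platelet genes were 9.00, 13.5 and 21.9 CPM, with 5 libraries above every CON library, and the granule progenitor genes 27.3, 40.3 and 107.1 CPM, with 3 libraries above. There 5 of the 6 platelet genes had a higher median than in CON mice, and Pf4, Gp9 and Gp1bb had medians under 1 CPM. The sum of 6 dendritic cell genes was lower in SUS mice, at 142.7, 161.3 and 176.9 CPM in CON and 60.6, 99.1 and 115.2 CPM in SUS mice, which did not overlap, although 1 of the 6 had a higher median. In RES mice this sum was 99.0, 125.1 and 171.5 CPM and overlapped with CON. Summed neutrophil genes were 352.2, 547.6 and 609.6 CPM in CON, 500.7, 552.3 and 1033 CPM in SUS and 382.6, 610.9 and 843.7 CPM in RES mice. Of the SUS and RES libraries, 2 and 3 lay above every CON library. Among the 6 genes, 5 had a higher median in SUS and 4 in RES mice, where Ly6g and Cxcr2 had medians under 1 CPM. The part of these marker lists in the result was not tested.

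Genes that work with the nuclear-encoded subunits moved to different extents in Ly6Chigh monocytes of SUS mice. Of the 13 subunits encoded by the mitochondrial genome, 0 were called in edgeR's test, and DESeq2 called 1 higher and 0 lower. In edgeR's test 4 had an unadjusted p under 0.05, as did 4498 of all 16955 genes. The median log2 fold change of the 13 was -0.20. Of 39 tested assembly factors 5 were called higher with a median of 0.33, and of 13 citric acid cycle enzymes 6 were called higher with a median of 0.35. Proteins of the mitochondrial ribosome, which translates the mitochondrial genes, had 20 of 77 called higher and a median of 0.61. Of 81 proteins of the cytosolic ribosome, 77 were called higher with a median of 0.85, near that of the oxidative phosphorylation genes.

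Regulators of the pathway were not called. Of 12 tested, 0 passed in edgeR's test or with DESeq2. In edgeR's test 1 had an unadjusted p under 0.05, as did 4498 of all 16955 genes. Nrf1, the factor whose site letters are common in these promoters, had a log2 fold change of 0.05 (SE 0.15). Gabpa, the ETS factor, had one of -0.35 (SE 0.17) and Yy1 one of -0.16 (SE 0.14). Tfam, the packaging factor of mitochondrial DNA, had one of -0.36 (SE 0.23). Cycs and Cyc1, the cytochromes c and c1, changed by 0.41 and 0.55, of which 1 was called. In RES mice, 0 of 13 mitochondrially encoded genes, 1 assembly factor, 3 cycle enzymes, 5 mitochondrial and 69 cytosolic ribosomal proteins and 0 regulators were called, with medians of -0.28, 0.11, 0.42, 0.37, 0.70 and -0.06. In edgeR's test none of these lists had a gene called lower, whereas DESeq2 called 4 of the 13 mitochondrially encoded genes and 1 cycle enzyme lower in RES mice.

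**Figure D4:**
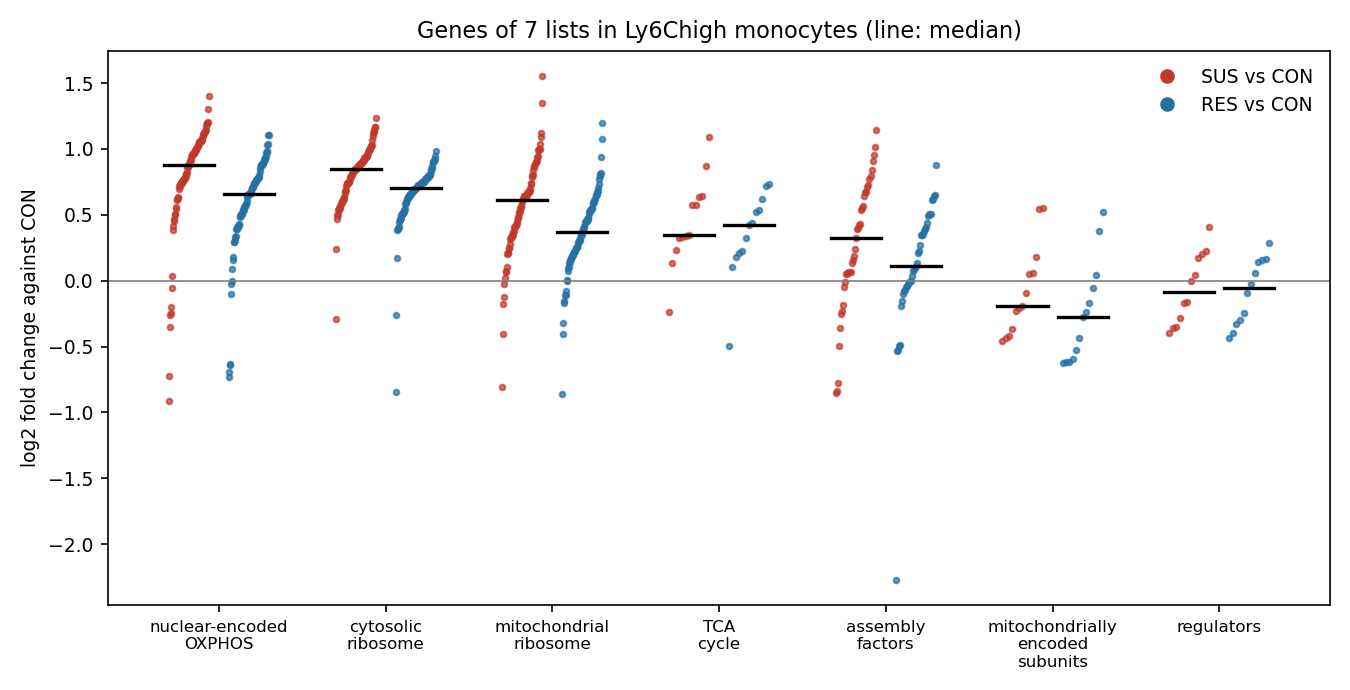
Log2 fold change against CON mice in Ly6Chigh monocytes of each tested gene in 7 lists, SUS mice in red and RES mice in blue, with a black line at the median. The nuclear-encoded oxidative phosphorylation genes (median 0.88 in SUS mice) and the cytosolic ribosome (0.85) lie above 0, and the mitochondrially encoded subunits (-0.20) and regulators (-0.08) lie around it.

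In Ly6Clow monocytes, the patrolling monocytes of the blood, the genes were lower in level and none was called. The summed level was 1981, 2036, 2050 and 2226 CPM in the 4 CON libraries, 2185, 2447 and 2675 CPM in SUS and 2293, 2590 and 2755 CPM in RES mice. The SUS libraries overlapped with CON only in 1 library, and the RES libraries lay above CON. Of 84 genes tested with edgeR, 0 were called in SUS and 0 in RES mice, where 0.241% and 0.0256% of all genes were called. An unadjusted p under 0.05 was reached by 21 and 31 of the 84, and by 1857 and 1888 of all 19521 genes. The median log2 fold changes of the 84 were 0.25 and 0.31, with 71 positive values in each. DESeq2 called 0 and 1 of them, with no share of all genes given. SUS and RES mice had a median difference of -0.02, and 0 genes were called (0% of all genes). Ly6Clow libraries also carried markers of natural killer (NK) cells. The sum of 6 NK cell genes was 283.5, 596.6, 619.3 and 935.9 CPM in the 4 CON libraries. In CON Ly6Chigh monocytes it was 2.78 to 43.1 CPM. The part of these markers in the lower level and in the comparisons was not tested.

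Single genes of Ly6Clow monocytes separated without passing the test. Every SUS library was above every CON library for Cox6b1, Uqcrb and Uqcrh, and the share was 1.21% of all genes. Cox6b1 was 14.5, 16.4, 16.5 and 19.2 CPM in CON and 20.2, 22.6 and 27.9 CPM in SUS mice (0.49, SE 0.15, adjusted p = 0.209). In RES mice this held for 9 genes, against 1.71% of all genes, among them Atp5mpl (0.64, SE 0.17, adjusted p = 0.169) and Ndufs7 (0.50, SE 0.15, adjusted p = 0.209).

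In lymphocytes the groups of mice overlapped. Summed levels in B cells were 3287, 3636 and 4477 CPM in CON, 3278, 3535 and 4298 CPM in SUS, and 3331, 3431, 3623, 3705 and 4074 CPM in RES mice. In T cells they were 3052, 3455 and 3763 CPM in CON, 2722, 3814 and 4743 CPM in SUS, and 3071, 3343, 3380, 3652 and 4181 CPM in RES mice. Of these 6 groups, T cells of SUS mice had the widest range.

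No gene of the family was called in lymphocytes by edgeR or DESeq2. Of 83 genes in B cells, 4 had an unadjusted p under 0.05 in SUS mice and 1 in RES mice, where 0.00568% and 0% of all genes were called. The medians were -0.03 and -0.06. Of 84 genes in T cells, 1 and 2 had an unadjusted p under 0.05, where 0.0424% and 0% of all genes were called, with medians of 0.12 and 0.03. Between SUS and RES mice 0 were called as well (0% of all genes in both cell types). The gene with the smallest p in B cells was Uqcrb (-0.44, SE 0.17, adjusted p = 0.999) and in T cells Ndufb4 (0.58, SE 0.26, adjusted p = 0.937).

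Whether the change in SUS mice itself differed between cell types was tested as an interaction in a fit of all 68 libraries, in which 85 of the genes and 24248 genes in all were tested. Against B cells, 50 genes had a larger change in Ly6Chigh monocytes and 0 a smaller one, where 4.02% of all genes were higher and 2.17% lower, and the median difference of log2 fold changes was 0.95. Against T cells, 29 had a larger change and 0 a smaller one (2.2% and 1.02% of all genes), with a median of 0.76. Against Ly6Clow monocytes, 0 were called in edgeR's test (0.26% and 0.103%), although the median difference was 0.61. In that test 46 of the 85 had an unadjusted p under 0.05, as did 3447 of all 24248 genes. A smaller change in Ly6Clow monocytes was thus not shown gene by gene. Atp5j2, a subunit of the membrane part of complex V, differed from B cells by 1.37 (SE 0.26, adjusted p = 0.00100), and Cox7b differed from T cells by 1.29 (SE 0.26, adjusted p = 0.00406). When only the 2 cell types compared were fitted, the counts fell to 29 against B cells and 4 against T cells. The shares of all genes called in those 2 fits are not given here. No red cell covariate was added to the interaction.

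The level of the genes in unstressed mice was compared between the cell types of CON libraries, with 84 of the genes tested. Ly6Clow monocytes stood lowest, with a median summed level of 2043 CPM, against 3326 in Ly6Chigh monocytes, 3455 in T cells and 3636 in B cells. The last 3 overlapped in range, and the highest Ly6Clow library (2226 CPM) was below all of them. Compared with Ly6Clow monocytes, Ly6Chigh monocytes had 43 genes higher and 1 lower (9.1% and 10.2% of all genes), with a median of 0.63. Ly6Clow monocytes had 57 genes lower and 1 higher than B cells (18.5% lower and 24% higher of all genes, median -0.76) and 48 lower and 0 higher than T cells (17.8% lower and 21.6% higher, median -0.67). Other lists were lower than in B cells too, with medians of -2.04 for the cytosolic ribosome and -1.14 for the mitochondrially encoded subunits. The mitochondrial ribosome had -0.70, assembly factors -0.30 and citric acid cycle enzymes -0.25.

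The genes with the largest of these differences came from several complexes. Ndufc2, a membrane-arm subunit of complex I, was 11.8, 18.1 and 25.7 CPM in Ly6Chigh monocytes and 3.88, 5.48, 5.97 and 7.78 CPM in Ly6Clow monocytes, with no overlap (1.65, SE 0.31, adjusted p = 0.000288). Uqcrh, the hinge protein of complex III, was 46.8, 53.0 and 59.5 CPM in Ly6Chigh monocytes and 16.2, 18.0, 18.9 and 21.0 CPM in Ly6Clow monocytes (1.51, SE 0.17, adjusted p = 2.66e-07). It was also lower in Ly6Clow monocytes than in B cells (-1.62, SE 0.17) and T cells (-1.67, SE 0.18). Ndufb2 went the other way, at 1.48, 4.09 and 5.81 CPM in B cells and 5.43, 7.93, 10.0 and 10.3 CPM in Ly6Clow monocytes (1.21, SE 0.35, adjusted p = 0.00668).

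The 3 other pairs were closer. Ly6Chigh monocytes had 9 genes higher and 16 lower than B cells (24.7% and 22.3% of all genes, median -0.10) and 10 higher and 7 lower than T cells (23.1% and 22.6%, median 0.01). B cells had 12 genes higher and 3 lower than T cells (15% and 16.4%, median 0.11). Sdhd was higher in Ly6Chigh monocytes than in B cells (0.75, SE 0.15, adjusted p = 0.000179) and T cells (0.75, SE 0.15), and Ndufa5 was lower (-0.97, SE 0.29, and -0.86, SE 0.29). With SUS and RES libraries added, the order against B cells turned, with 48 genes higher and 7 lower in Ly6Chigh monocytes, and against T cells 61 were higher and 6 lower. That fit holds more libraries than the one of CON mice, and its share of all genes called is not given here.

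**Figure D5:**
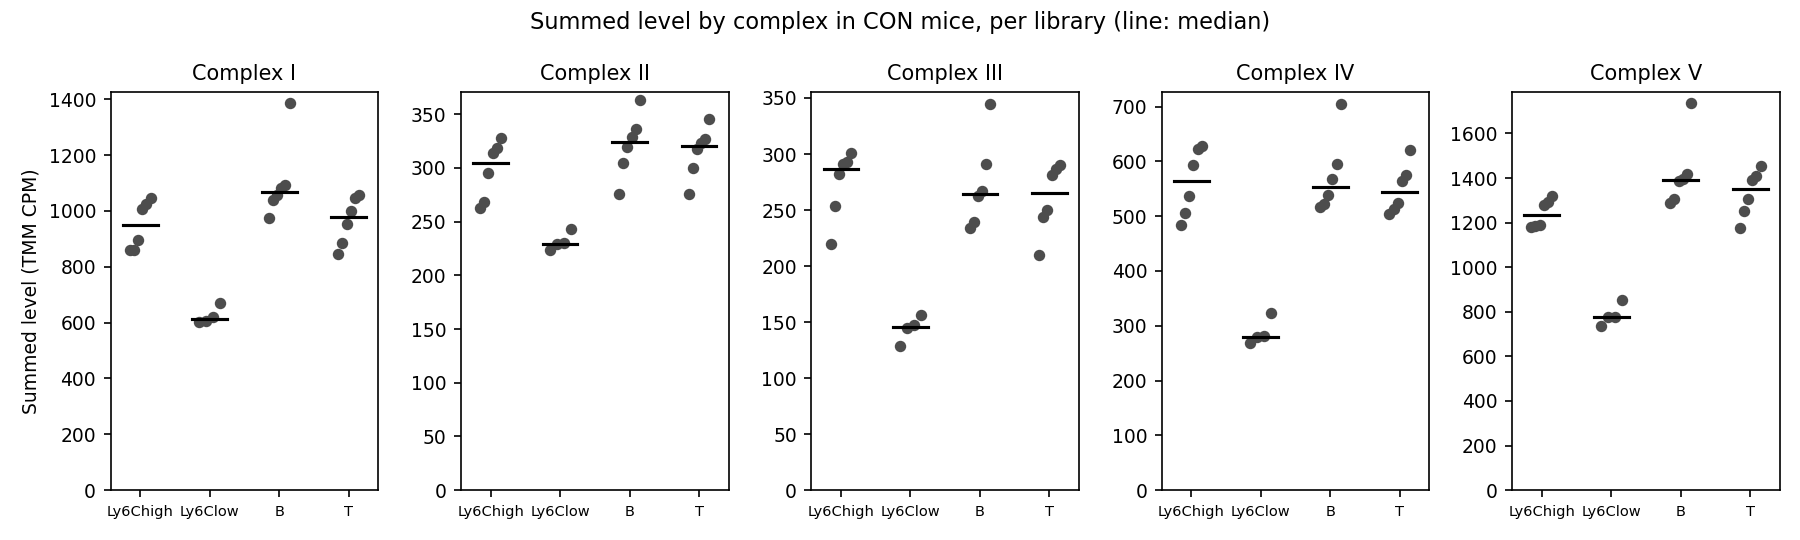
Summed level of the genes of each complex in each CON library, in TMM-normalized CPM, by cell type, with a black line at the median. Ly6Clow monocytes have the lowest median in all 5 complexes, for example 611.8 CPM in complex I against 949.7 in Ly6Chigh monocytes, 977.0 in T cells and 1069 in B cells.

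Per length of exon, the mean level over the 68 libraries was highest for Atp5a1, at 121.7 CPM per kb, followed by Cox7a2l (86.4), Cox8a (80.8), Atp5h, a stalk subunit of complex V (75.9), and Cox4i1 (70.7). Highest in complex I were Ndufa13 (49.5) and Ndufb10 (47.8), which are both supernumerary subunits. The forms of complex IV subunits known from other tissues were low, and Cox7a1 was the highest of them in CON Ly6Chigh monocytes, with a median of 3.77 CPM per kb. Cox7b2 and Cox8c, both known from testis, had no count in any library, which allows at most 3 counts each. Cox4i2, the lung form that responds to oxygen, had a count in 8 of 68 libraries, while Cox4i1 had a median of 69.4 CPM per kb in CON Ly6Chigh monocytes.

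The testis form Cox6b2, singled out after its values were seen, was low but detected in all CON libraries of Ly6Chigh monocytes. It had 74 to 213 counts in each CON library of Ly6Chigh monocytes (2.08, 3.04 and 5.31 CPM) and 0 to 50 counts in those of the other cell types. Its highest level there was 1.11 CPM, below all Ly6Chigh libraries. The log2 difference was 3.54 against B cells and 2.93 against T cells, and its difference between SUS and CON mice was not called (-0.26, SE 0.42). Per kb it stayed at 2.74 CPM, against 36.9 for Cox6b1. Cox6a2, the heart and muscle form, was the gene called lower in Ly6Chigh than in Ly6Clow monocytes, but rests on 0 counts in the 6 CON libraries of the former and 72 counts in all in the 4 of the latter.

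Ndufs3, a core subunit of complex I found in most tissues, was nearly absent from the table, with 0 to 72 counts per library, a count in 27 of 68 libraries and a mean of 3.01. It passed no filter and was not tested in any cell type, and the reason for its low counts was not tested. Exons of another gene on either strand covered over 25% of the exon bases of 4 genes, which are Sdhaf1 (69.6%), Atp5o (47.9%), Ndufb6 (39.0%) and Ndufa13 (30.0%). Whether counting used strand is not stated, so reads of these genes and of their neighbours may not be told apart. In 56 of the 89 genes no exon base was shared.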

How the data were processed

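Total RNA of sorted cells was made into libraries with a stranded kit for low input. Per the submitters' processing notes, HISAT2, HTSeq and DESeq2 were used with mm10. The strand setting of the counting is not given in the sources used here. The authors deposited raw counts per gene, with 1 column per library and no normalization. Depth was 19769835 to 67038231 counts per library. Intervals for a count of 0 cover counting error only.

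Genes were matched by Ensembl identifier to GENCODE M21 (GRCm38), which fits 52489 of 52636 rows. Members, gene lists and tests were chosen with earlier results of these data known. In R 4.3.3, each cell type was filtered with filterByExpr, scaled by TMM and fitted with edgeR 4.0.16 (robust quasi-likelihood F test), with adjusted p by Benjamini-Hochberg over all genes tested. CON libraries of the 4 cell types, and interactions over all libraries, were fitted in the same way. Printed levels are TMM-normalized CPM over all libraries. Standard errors were derived from the log2 fold change and F. Named in each cell type were up to 10 called genes per direction with the largest change and a mean of at least 50 counts, or the 3 with the smallest p. Between cell types these were 5 per direction. The 2 genes per complex with the highest level per kb, paralogue pairs and complex II subunits were also named, and further genes only to describe their complex. The fits were tested on simulated counts. Alternatives were DESeq2 1.42.0, its size factors, no low-count filter, dropped mitochondrial, hemoglobin and rRNA-like genes, a GC and length offset, the log2 level of 7 red cell genes as covariate, only the groups or cell types compared, libraries 52 and 70 kept, each library left out, and protein-coding genes alone, which was added after seeing the data. Not every alternative was run on every fit. The red cell covariate was added only to the fits within a cell type. The interaction was refitted with DESeq2 size factors, protein-coding genes alone, only the cell types compared, and libraries 52 and 70 kept. Of single libraries, it was refitted only without each CON library of Ly6Clow monocytes. Of 171 pairs of replicate libraries, 0 were identical.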

Additional observations from a re-analysis of the deposited data

Results flagged for a closer look

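The change of the oxidative phosphorylation genes in SUS mice differed between Ly6Chigh monocytes and lymphocytes. It was not particular to them, since 60 of 81 cytosolic ribosomal proteins changed more than in B cells and 39 more than in T cells. By the interaction test over all 68 libraries, 50 of 85 genes changed more in Ly6Chigh monocytes than in B cells (4.02% of all genes) and 29 more than in T cells (2.2%), and 0 were called against Ly6Clow monocytes. When only the 2 cell types compared were fitted, 29 and 4 genes were called against B cells and T cells, with no share of all genes given. The interaction was not fitted with the red cell covariate.

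Of 72 groups of summed levels, 4 had a library far from the others by Dixon's criterion, which is passed by about 5% of groups at random. CON replicate 38 of B cells stood above the other CON libraries in the summed level of all 89 genes (4477 CPM), of complex I (1387 CPM) and of complex V (1736 CPM), and RES replicate 28 of Ly6Clow monocytes stood below the others in complex II (213.5 CPM).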

How the results depend on the processing

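No paired analysis was possible because the groups share no replicate numbers and the labels tie no library to a mouse. Of 210 values for whole comparisons under other settings, 190 kept their direction and stayed within 1.5 times, and of 726 values for named genes 678 kept direction and call, 43 lost the call, 1 gained it and 4 turned.

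In Ly6Chigh monocytes, the red cell covariate left 0 genes called in SUS and 0 in RES mice, and a log2 fold change above 1 left 27 and 3. With each library left out, RES counts ran from 6 to 40. A GC and length offset moved the median of all genes in SUS mice from -0.05 to 0.10 and left 52 genes called with a median of 0.94. The shares of all genes called with a library left out or with the offset are not given here. In Ly6Clow monocytes DESeq2 called 1 gene in RES mice, and as a percent of protein-coding counts the RES difference in summed level was 0.25 on the log2 scale.

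Between CON cell types, a log2 fold change above 1 in either direction left 17 of 84 genes for Ly6Chigh against Ly6Clow monocytes. Of these, 16 were higher and 1 lower (938 and 1418 of all 21032 genes). Ly6Chigh monocytes kept 3 against B cells, 2 higher and 1 lower (3847 and 3122 of all genes). Against T cells they kept 1, which was higher (3521 higher and 3374 lower of all genes). Ly6Clow monocytes kept 28 against B cells, 1 higher and 27 lower (3795 and 2573 of all genes). Against T cells they kept 20, all lower (3336 higher and 2654 lower of all genes). B cells against T cells kept 3, 2 higher and 1 lower (1888 and 2357 of all genes). At an adjusted p under 0.05 alone, adding SUS and RES libraries gave 76, 55 (turned to 48 higher and 7 lower) and 67 genes for Ly6Chigh against Ly6Clow monocytes, B cells and T cells, where CON mice gave 43 higher and 1 lower, 9 higher and 16 lower, and 10 higher and 7 lower. For B cells against T cells it gave 31 and the GC and length offset 23, where CON mice gave 12 higher and 3 lower. Atp5f1 against B cells turned to -0.14 under that offset, and with all mice Atp5e against B cells turned to 0.0075, Ndufs6 against T cells to 0.28 and Atp5g3 to 0.047. The interaction fell to 29 genes against B cells with 2 cell types fitted, and to 4 with 2 cell types and 16 with DESeq2 size factors against T cells. Apart from the fold threshold, the shares of all genes called are not given for these fits under other settings. Causes were not tested. For genes with few counts in all libraries, such as Cox8b and Cox4i2, changes were not detectable at this depth.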
